A study of Mus musculus with 40 samples.

Results

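Elastic fibers give the vocal fold and the airway wall their recoil, and the genes that build them were followed here through the growth of the mouse larynx. The set comprised 10 of the 53647 genes listed in the deposited tables and was chosen by name: the elastin gene Eln, the fibrillins Fbn1 and Fbn2, the microfibril-associated genes Mfap4 and Mfap5, Emilin1, the fibulins Fbln5 and Efemp2 (fibulin-4), and the cross-linking enzymes Lox and Loxl1. All 10 were matched to an Ensembl gene and all 10 passed the filter on low counts. Bulk RNA-seq, which sums the transcripts of all cells in a tissue piece, had been made for 40 libraries of wild-type FVB/N mice, of which 16 came from the larynx, 12 from the esophagus and 12 from the trachea. Every organ was sampled on 5 embryonic days (E) between E10.5 and E18.5, and the larynx also at P0 (birth) and in adults of 6 to 8 weeks by the methods. No group carried a transgene or a treatment. The methods give pools of 20 animals at E15.5 and of 10 at the other embryonic ages, and place the larynx pieces at the level of the vocal folds from E13.5 on, so the values describe a piece of larynx and not the vocal fold alone. At E10.5 and E11.5 the tissue was taken at the level of the laryngopharynx, and the labels name the E10.5 pieces primitive laryngopharynx. They are called larynx here for short, and age and the structure sampled cannot be told apart in steps that start from them. Each organ and age had 2 libraries, apart from E15.5 with 4.

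Libraries were deposited in 2 tables, and their names end either in a short code (30 libraries, all embryonic) or in a 6-base index (10 libraries: E15.5 of each organ, P0 and adult). Both kinds exist only at E15.5, so that E18.5 and P0, which differ in kind as well as age, were not tested against each other. The labels name the larynx pieces vocal fold in all index libraries, and larynx in the short-code libraries from E11.5 on. All are called larynx here, and kind of library and the labelled structure cannot be told apart. Total expected counts ran from 3286403 to 35831491 per library. The share of mitochondrial ribosomal RNA was 9.3 to 32.2% among the short-code libraries, but only 0.05 to 0.196% among the index libraries. The E15.5 esophagus index library numbered 2 stood apart from its partner (Pearson r = 0.744 of log2 values, against 0.867 to 0.986 in the other groups), and Fbn2 had a normalized count of 22.3 in it against 10949 in the partner. The E13.5 larynx libraries carried heart markers (summed normalized counts of 132569 and 258911 for Myh6, Nppa, Myl7 and Tnnt2, against 5.22 and 13.4 at E10.5). Within every group the 2 libraries differed by more than sampling noise. Whether they came from separate litters is not stated for each group, so p-values measure the spread between libraries.

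An elastic fiber has a core of cross-linked elastin laid on a scaffold of fibrillin microfibrils. Cells secrete soluble tropoelastin, fibulins carry it to the microfibrils and recruit lysyl oxidases, and these enzymes join its lysines into an insoluble polymer that is hardly renewed in later life. In the vocal fold such fibers lie in the lamina propria, the pliable layer beneath the epithelium.

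Promoters are shown for the genes with a window in the RefSeq table (build GRCm38.p6), which were Fbn1, Fbln5, Efemp2 and Emilin1 among the 10. No window is shown for Eln, Fbn2, Lox, Loxl1, Mfap4 and Mfap5. The sequences show the start regions of a fibrillin, both fibulins and Emilin1, which rose by different amounts in the results below, and where the table has several windows the first is shown. Each sequence holds the 250 bases before the annotated start, 5′ to 3′ on the gene's strand, and capitals mark matches to the GC box (GGGCGG) or to the SMAD-type element (CAGACA) on either strand.
Fbn1 (chr2:125506439-125506688, minus strand): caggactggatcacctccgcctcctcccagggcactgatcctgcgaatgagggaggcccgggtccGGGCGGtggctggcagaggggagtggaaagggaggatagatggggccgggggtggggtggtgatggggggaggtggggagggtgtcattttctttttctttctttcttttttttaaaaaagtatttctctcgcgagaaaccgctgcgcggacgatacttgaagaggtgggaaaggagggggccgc
Fbln5 (chr12:101819120-101819369, minus strand): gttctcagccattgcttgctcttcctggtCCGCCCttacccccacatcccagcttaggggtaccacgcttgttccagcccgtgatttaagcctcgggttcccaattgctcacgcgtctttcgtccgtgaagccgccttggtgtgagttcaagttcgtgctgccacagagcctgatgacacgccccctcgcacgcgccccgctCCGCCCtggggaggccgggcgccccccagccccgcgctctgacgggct
Efemp2 (chr19:5473696-5473945, plus strand): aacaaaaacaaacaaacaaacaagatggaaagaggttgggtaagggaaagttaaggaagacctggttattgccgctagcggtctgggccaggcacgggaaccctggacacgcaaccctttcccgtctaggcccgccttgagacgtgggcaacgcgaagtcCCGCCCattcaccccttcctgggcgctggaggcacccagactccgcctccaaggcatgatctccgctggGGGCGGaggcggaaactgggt
Emilin1 (chr5:30913536-30913785, plus strand): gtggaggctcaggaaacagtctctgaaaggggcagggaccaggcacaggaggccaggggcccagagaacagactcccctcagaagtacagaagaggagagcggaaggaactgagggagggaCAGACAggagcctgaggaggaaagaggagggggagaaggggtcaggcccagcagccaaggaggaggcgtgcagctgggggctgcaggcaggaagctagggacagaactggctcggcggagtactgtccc
The GC box occurred 1 time before Fbn1 and 2 times in the windows shown for Fbln5 and Efemp2, and it lies in 32.9% of the 27025 windows of the same length. The CAGACA element occurred 1 time before Emilin1 and lies in 17.1% of windows. The windows not shown held 5 and 5 GC boxes for Efemp2, where both overlap each other, and for Fbln5 no GC box and 1 CAGACA element. None of the 4 windows held the TATA box (spelled TATAAA, in 13% of windows), the MCAT element (spelled GGAATG, in 12.6%), the AP-1 element (spelled TGANTCA, in 6.87%) or a CArG box (in 1.4%), each sought on both strands. A match is a string of letters and says nothing about binding.

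**Figure D1:**
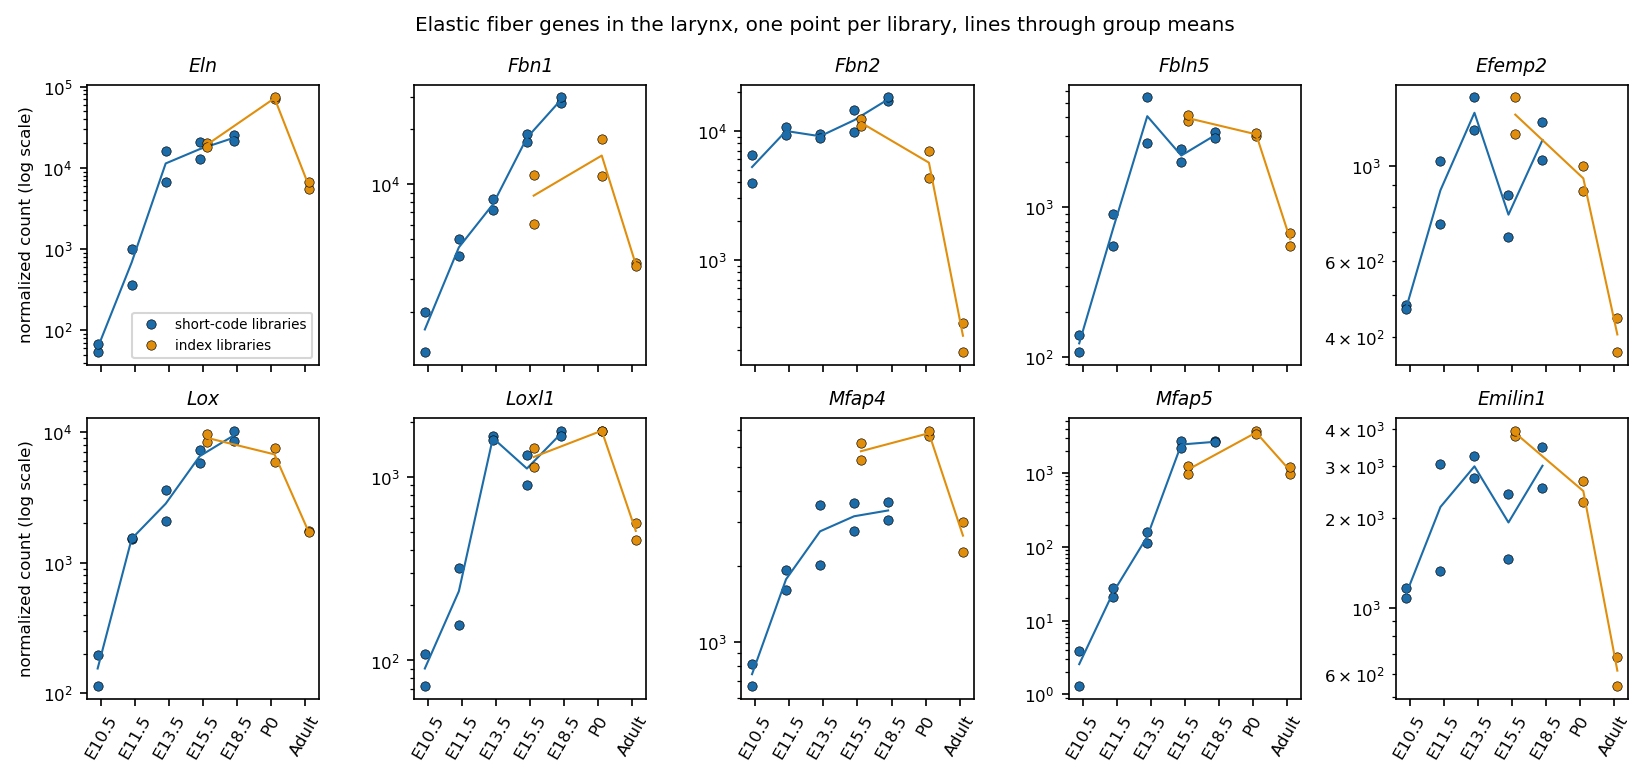
Normalized counts (log axis) of the 10 genes against age in the larynx, with 1 point per library and lines through the means of each kind of library. Eln stood at 53.6 and 68.0 at E10.5 (short-code), at 69893 and 73827 at P0 and at 5461 and 6758 in adults (both index). Fbn2 already stood at 3927 and 6550 at E10.5 and was lowest in adults.

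Over the whole series of ages, which joins both kinds of library, all 10 genes changed in the larynx. A natural spline on age rank, tested in edgeR over 16 libraries, called 10 of 10 at an adjusted p of at most 0.01, where 26.1% of 32559 genes tested were called. Adjusted p ran from 4.56e-08 for Mfap5 to 0.0029 for Emilin1. In the 36 embryonic libraries of 3 organs the same test called 34.1% of all genes and 8 of the 10. The others were Fbn2 (adjusted p = 0.119) and Emilin1 (adjusted p = 0.0568), and with short-code libraries alone all 10 were called.

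The first comparison asked how far the set had risen by the age at which the vocal folds take shape. Between E10.5 and E13.5, 9 of the 10 genes rose in the larynx (edgeR quasi-likelihood test, adjusted p under 0.05), where 13.46% of 36790 genes changed in either direction. The median log2 change of the 10 was 3.23, and that of all genes was 0.00. Eln rose 185-fold, Mfap5 48.3-fold, Fbln5 32.6-fold, Lox 18.4-fold and Loxl1 18.1-fold. The rise was smaller for Fbn1 (4.86-fold), Mfap4 (3.71-fold), Efemp2 (2.82-fold) and Emilin1 (2.68-fold), and Fbn2 did not pass (1.73-fold, adjusted p = 0.687).

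Elastin is the bulk protein of the fiber. Its gene lies on mouse chromosome 5 (134731445 to 134776322, minus strand, build GRCm39). Normalized counts, which are expected counts divided by the library's median-ratio factor, were 53.6 and 68.0 for Eln at E10.5, 1011 and 359 at E11.5, and 16010 and 6631 at E13.5. The 3 ages did not overlap, and the pair at E13.5 differed by more than the pair at E10.5. Eln rose by 7.53 on the log2 scale from E10.5 to E13.5 (SE 0.875, 95% interval 5.74 to 9.33, adjusted p = 7.24e-07). The change was 6.76 without the E13.5 library numbered 1 and 8.03 without that numbered 2, and the call held in both.

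The carriers and cross-linkers rose too, by different amounts. Fbln5, which binds tropoelastin and Loxl1, had normalized counts of 108 and 140 at E10.5, 901 and 554 at E11.5, and 5427 and 2689 at E13.5, a log2 change to E13.5 of 5.03 (SE 0.515, adjusted p = 1.00e-07). Lox, which oxidises lysines of elastin and collagen, stood at 195 and 114, then 1517 and 1531, then 3572 and 2084, a log2 change of 4.20 (SE 0.807, adjusted p = 5.28e-04). Loxl1, a relative of Lox that acts on elastin, stood at 108 and 72.8, then 321 and 156, then 1671 and 1597, a log2 change of 4.18 (SE 0.374, adjusted p = 1.51e-08). In these 3 genes every later age lay above the earlier ones. Efemp2, which is needed for Lox to act on elastin, was already at 474 and 465 at E10.5 and reached 1439 and 1212. With 1 library left out, the log2 change of Fbln5 was 4.43 without the E13.5 library numbered 1 and 5.45 without that numbered 2, and that of Lox ran from 3.76 to 4.63.

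The microfibril genes started from very different levels. Mfap5, which codes for a small glycoprotein bound to fibrillin, gave 1 and 4 reads at E10.5, so its fold rests on few reads. Summed over both libraries, E13.5 held 51.1 times as much as E10.5 after scaling (95% counting interval 21.6 to 159, which covers counting error only). Its fitted log2 change was 5.13 without the E10.5 library numbered 1 and 6.59 without that numbered 2. Mfap4, another microfibril-associated glycoprotein, rose from 669 and 819 to 3502 and 2022, and Emilin1, a glycoprotein at the surface of the elastin core, from 1074 and 1162 to 3241 and 2744. Emilin1 was the weakest call (adjusted p = 0.0302), and no fit without 1 of the 4 libraries called it (adjusted p = 0.0807 to 0.159).

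Markers of other tissue moved along the same step. In the larynx the smooth muscle list (Acta2, Myh11, Cnn1, Actg2, Lmod1; 5 of 5 higher) summed to 216 and 243 at E10.5 and to 21563 and 18135 at E13.5, and the fibroblast list (Col1a1, Col1a2, Col3a1, Dcn, Lum, Pdgfra; 5 of 6 higher) to 17522 and 20639 and then 143906 and 114484. All 4 heart markers and all 3 liver markers were higher at E13.5, whereas cartilage markers summed to 1898 and 1485 against 5925 and 6907 at E10.5. Endothelial markers (4 of 4 higher) summed to 2675 and 3052 and then 12804 and 11873, and skeletal muscle markers (5 of 5 higher) to 43.1 and 237 and then 5309 and 7559. The part of these tissues in the rise was not tested, and in bulk RNA more cells of a type and more RNA per cell cannot be told apart. With short-code E15.5 libraries in place of E13.5, where heart markers summed to 1806 and 1492, 8 of the 10 genes rose and Eln changed by 8.12 on the log2 scale. With E11.5 in its place (heart markers 421 and 254), 6 rose, which were Eln (log2 change 3.47), Lox (3.31), Mfap5 (3.14), Fbln5 (2.54), Loxl1 (1.36) and Mfap4 (1.26). Both choices of age were made after seeing the data. These libraries have limits of their own. The E11.5 larynx library numbered 1 was the shallowest (3286403 counts), and number 2 held counts in 1108 of 1194 olfactory receptor genes. The short-code E15.5 larynx library numbered 2 held counts in 686 of them.

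**Figure D2:**
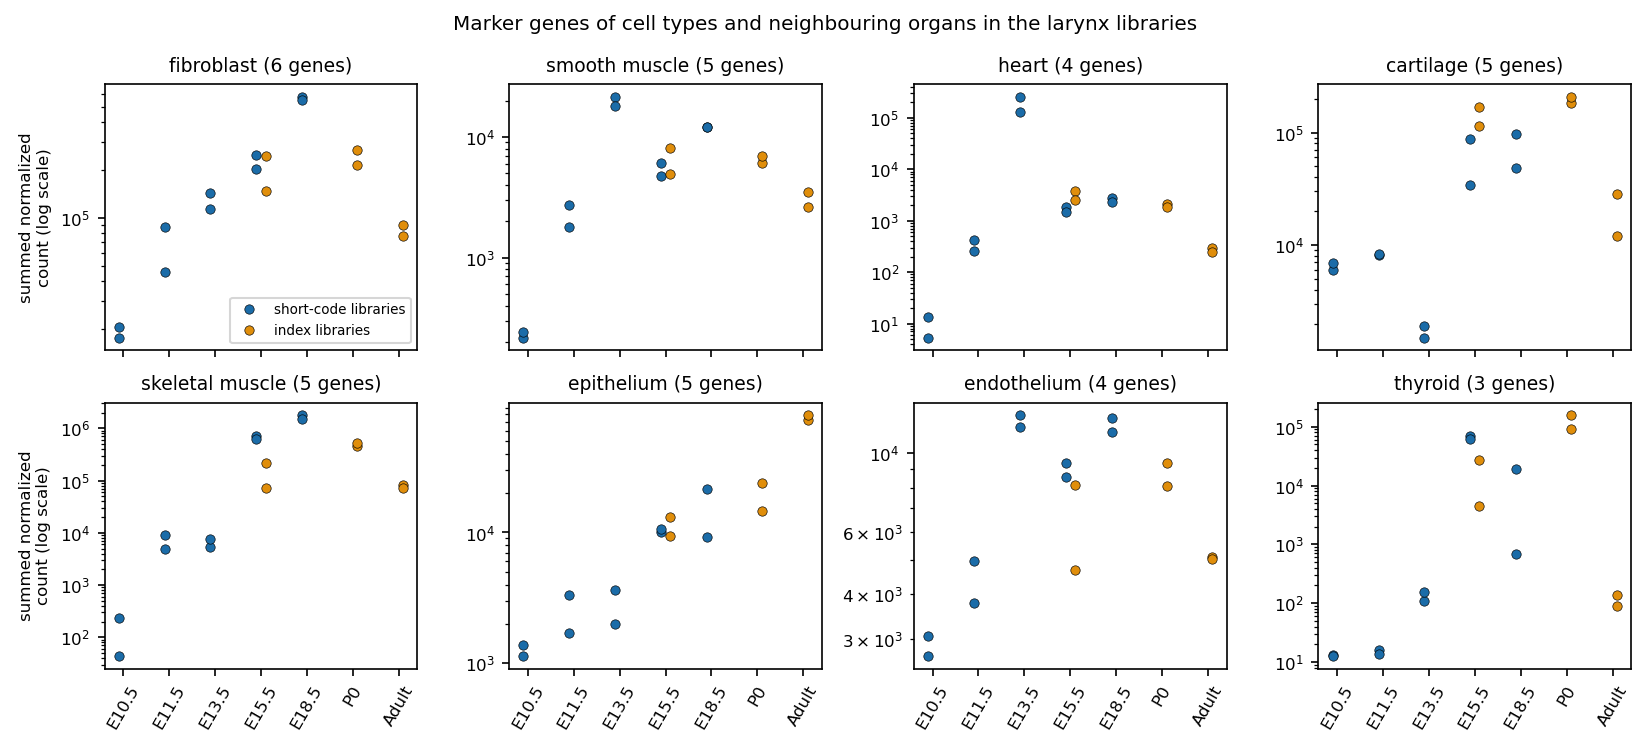
Summed normalized counts (log axis) of marker genes against age in the larynx, 1 point per library. Heart markers reached 132569 and 258911 at E13.5 and were at most 3796 at every other age, and fibroblast markers rose from 17522 and 20639 at E10.5 to 579642 and 549999 at E18.5.

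From E13.5 to E18.5, as the larynx gains cartilage and striated muscle, 2 of the 10 genes rose further and none fell, where 8.41% of all genes changed. Mfap5 rose 19.2-fold (log2 4.26, SE 0.413, adjusted p = 6.38e-07), from 161 and 114 to 2676 and 2614. Fbn1, the main fibrillin of mature microfibrils, rose 3.75-fold (log2 1.91, SE 0.424, adjusted p = 0.00395), from 8292 and 7204 to 28051 and 30004. In both genes the E18.5 libraries lay far above those of E13.5. Lox (log2 1.74, adjusted p = 0.161) and Eln (log2 1.05, 95% interval -0.30 to 2.39) did not pass, and Fbln5, Efemp2, Loxl1, Mfap4 and Emilin1 had log2 changes between -0.42 and 0.28. Without the E15.5 esophagus library that stood apart, 4 genes rose, with Lox (adjusted p = 1.27e-04) and Fbn2 (adjusted p = 0.0454) added. Without the E13.5 larynx library numbered 2, Mfap5 alone was called and Fbn1 had an adjusted p of 0.0774. With short-code E15.5 in place of E13.5 none of the 10 passed, and 1 gene of all did. This choice of age and the omission of the E15.5 esophagus library, here and in later steps of age, were made after seeing the data. Skeletal muscle markers (5 of 5 higher) summed to 1793961 and 1471315 at E18.5, against 5309 and 7559 at E13.5. Cartilage markers (4 of 5 higher) summed to 96271 and 48180 against 1898 and 1485, and fibroblast markers (4 of 6 higher) to 579642 and 549999 against 143906 and 114484. All 4 heart and all 3 liver markers were lower at E18.5. The part of these tissues in the step was not tested.

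Between E15.5 and E18.5 the values of Mfap5 no longer separated. It stood at 2695 and 2161 in the short-code E15.5 libraries and at 2676 and 2614 at E18.5, so the pairs overlapped. Index libraries of E15.5 gave 1248 and 976, which is below the short-code pair and above E13.5. Mean Eln in short-code libraries climbed with every age, from 60.8 ± 10.2 at E10.5 and 685 ± 461 at E11.5 to 11320 ± 6630 at E13.5, 16980 ± 5790 at E15.5 and 23393 ± 3170 at E18.5 (SD, n = 2 each). The E13.5 and E15.5 pairs overlapped, and both E18.5 libraries lay above them, the lower one (21154) close to the highest of E15.5 (21070). With no filter on low counts Eln passed from E13.5 to E18.5 (adjusted p = 0.0139).

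From E10.5 to E18.5 as a whole, 9 of 10 genes rose in the larynx, where 22.8% of all genes changed, with a median log2 change of 4.22 over the 10. Mfap5 had the largest fitted change (log2 9.85, SE 0.589), again against 1 and 4 reads, followed by Eln (8.58, SE 0.913), Lox (5.94, SE 0.873) and Fbln5 (4.61, SE 0.506). Emilin1 rose 2.69-fold (adjusted p = 0.0178) and lost the call without 3 of the 4 libraries in turn (E10.5 numbers 1 and 2 and E18.5 number 1; adjusted p = 0.0881 to 0.139). Fbn2 alone did not pass (log2 1.75, adjusted p = 0.219).

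The call for Fbn2 changed with 1 library outside the larynx and with the filter on low counts. Fbn2, the fibrillin that is known mostly from fetal tissue, stood in the larynx at 3927 and 6550 at E10.5, at 10730 and 9222 at E11.5, at 9410 and 8762 at E13.5 and at 16908 and 18231 at E18.5, so the first and last ages did not overlap. The fit shares one estimate of spread per gene among all groups, and Fbn2 had 10949 and 22.3 in the 2 index libraries of the E15.5 esophagus. Without the second of these, the larynx change was 1.76 with an adjusted p of 9.66e-05, and Fbn2 also passed in the esophagus (0.99, adjusted p = 0.0204) and the trachea (1.34, adjusted p = 0.00196). Fbn2 likewise passed in all 3 organs when no filter on low counts was used. The low Fbn2 count of the omitted library was known beforehand, so the fits without it do not test Fbn2 independently. In that library Lox was also low (192 against 9948) and markers of skeletal muscle (540165 against 93680) and epithelium (129652 against 20858) were high, and their part in the low Fbn2 was not tested.

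**Figure D3:**
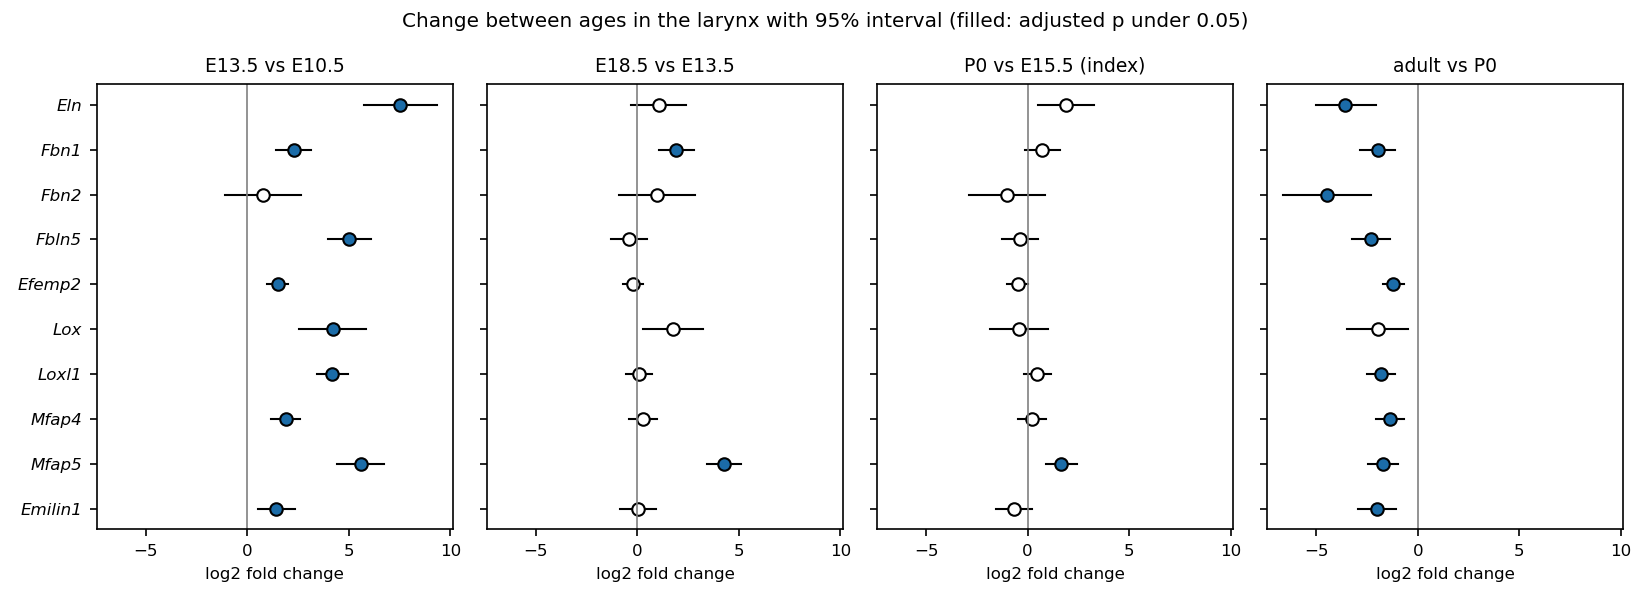
Log2 fold change of each gene with its 95% interval for 4 steps of age in the larynx, with filled points where the edgeR adjusted p was under 0.05. There are 9 filled points to the right of 0 from E10.5 to E13.5, 2 from E13.5 to E18.5, 1 from E15.5 to P0 and 9 to the left of 0 from P0 to the adult.

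Around birth the comparison was made within index libraries, P0 against E15.5. Only Mfap5 passed (log2 1.67, SE 0.367, adjusted p = 0.0348), where 0.552% of all genes changed, and leaving out any 1 of the 4 libraries lost it (adjusted p = 0.162 to 0.606). Eln had 20382 and 17800 at E15.5 and 69893 and 73827 at P0, a 3.76-fold difference with an interval of 0.53 to 3.29 on the log2 scale and an adjusted p of 0.199. The Eln pairs lay far apart, and without the E15.5 esophagus library that stood apart Eln passed (log2 1.92, adjusted p = 0.0296). The other 8 genes had log2 changes from -1.03 for Fbn2 to 0.73 for Fbn1.

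After birth the set fell. In adult larynx 9 of the 10 genes were lower than at P0, where 4.09% of all genes changed in either direction and 2.01% fell. The median log2 change of the 10 was -1.98, against 0.00 for all genes. Fbn2 was 22.1-fold lower (log2 -4.46, SE 1.05, adjusted p = 0.0125), from 4332 and 6997 at P0 to 323 and 191. Eln was 11.8-fold lower (log2 -3.56, SE 0.718, adjusted p = 0.00372), from 69893 and 73827 to 5461 and 6758, which is still above every library of E10.5 and E11.5. Both genes were parted between the ages without overlap.

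The other genes fell by less. Fbln5 was 5-fold lower (2999 and 3144 against 553 and 676), Emilin1 4.03-fold, Fbn1 3.96-fold (11129 and 17597 against 3694 and 3565), Loxl1 3.52-fold, Mfap5 3.29-fold, Mfap4 2.56-fold and Efemp2 2.3-fold. Lox, at 5926 and 7563 against 1734 and 1718, did not pass (log2 -1.97, 95% interval -3.46 to -0.48, adjusted p = 0.145), although its pairs did not overlap. It passed without the E15.5 esophagus library that stood apart (adjusted p = 4.61e-05) and in DESeq2 (adjusted p = 0.0449).

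These calls rest on few libraries. Without the adult library numbered 1 none of the 10 was called, without adult number 2 there were 3, without P0 number 1 there were 6 and without P0 number 2 there were 5, while all 10 log2 changes stayed below 0. Fibroblast markers (3 of 6 lower, 1 higher) summed to 214189 and 268453 at P0 and to 89891 and 77385 in adults, thyroid markers to 90327 and 158727 and then 138 and 89.3, and epithelial markers to 23895 and 14519 and then 72295 and 79185. Cartilage markers (2 of 5 lower) summed to 183830 and 208834 at P0 and to 28319 and 12026 in adults, and skeletal muscle markers (3 of 5 lower) to 464285 and 525005 and then 81962 and 73077. Their part in the fall was not tested. Set against E15.5 index libraries in place of P0, 8 genes were lower in adults, and Eln (log2 -1.64, adjusted p = 0.115) and Mfap5 (-0.05) were not.

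Counts per 100 fibroblast marker counts in the same library give another view, as a description. By this measure Eln in short-code libraries stood at 0.306 and 0.329 at E10.5 and at 11.1 and 5.79 at E13.5. It then stood at 8.47 and 6.31 at E15.5 and at 4.42 and 3.85 at E18.5. In index libraries Eln stood at 8.29 and 12.1 at E15.5, 32.6 and 27.5 at P0 and 6.08 and 8.73 in adults. Fbn2 went down within both kinds. Short-code libraries gave 22.4 and 31.7 at E10.5 and 6.54 and 7.65 at E13.5. They gave 5.8 and 4.78 at E15.5 and 2.92 and 3.31 at E18.5. Index libraries gave 5 and 7.39 at E15.5, 2.02 and 2.61 at P0 and 0.359 and 0.247 in adults. Fbn1 stayed between 4.1 and 9.67 in all 16 larynx libraries. Relative to these markers Eln was again highest at P0, and Fbn2 was again lowest in adults. The steps of other genes differed by this measure. From E10.5 to E13.5 Eln, Fbln5, Lox, Loxl1 and Mfap5 went up, and Fbn1, Fbn2, Efemp2, Mfap4 and Emilin1 went down. From P0 to the adult the pairs overlapped for Efemp2, Loxl1, Mfap4 and Mfap5 (1.75 and 1.24, then 1.06 and 1.54), and the other members were lower in adults.

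The balance of the 2 fibrillins shifted with age in the larynx in both kinds of library. Counts per kilobase of exon put different genes on a common scale, with the length taken over all annotated exons of a gene. That length (19598 bases for Fbn2, 12128 for Fbn1) need not be that of the transcript expressed. The shares here and below depend on it. Before division by length, mean normalized counts in the larynx at E13.5 were 9086 for Fbn2 and 7748 for Fbn1. Per kilobase, Fbn2 made up 67.1 and 67.0% of the 2 fibrillins in the larynx at E10.5. Its share was 57.1 and 58.7% at E11.5, 41.3 and 42.9% at E13.5, 32.2 and 26.1% in short-code libraries of E15.5 and 27.2 and 27.3% at E18.5. Each step lay below the one before without overlap, apart from E15.5 and E18.5. In index libraries the share was 40.3 and 52.7% at E15.5, 19.4 and 19.7% at P0, and 5.14 and 3.20% in adults. The other organs ran close to the larynx, with 69.9 and 69.2% at E10.5 and 28.5 and 23.5% at E18.5 in the esophagus and 62.8 and 59.4% and then 32.9 and 28.6% in the trachea.

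Other pairs shifted too. Fbln5 made up 14.6 and 18.3% of the sum with Efemp2 at E10.5 and 73.8 and 62.4% at E13.5, and lay between 65.4 and 72.9% at E18.5 and P0 and at 52.8 and 53.2% in adults. Mfap5 made up 0.0663 and 0.159% of the sum with Mfap4 at E10.5, 1.54 and 1.88% at E13.5 and 20.1 and 22.4% at E18.5. Lox made up 59.0 and 55.7% of the sum with Loxl1 at E10.5 and 79.4 and 83.1% at E18.5. At E13.5 the Lox share (63.2 and 51.1%) overlapped that of E10.5, whereas the shares of Fbln5 and Mfap5 at E13.5 lay wholly above.

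**Figure D4:**
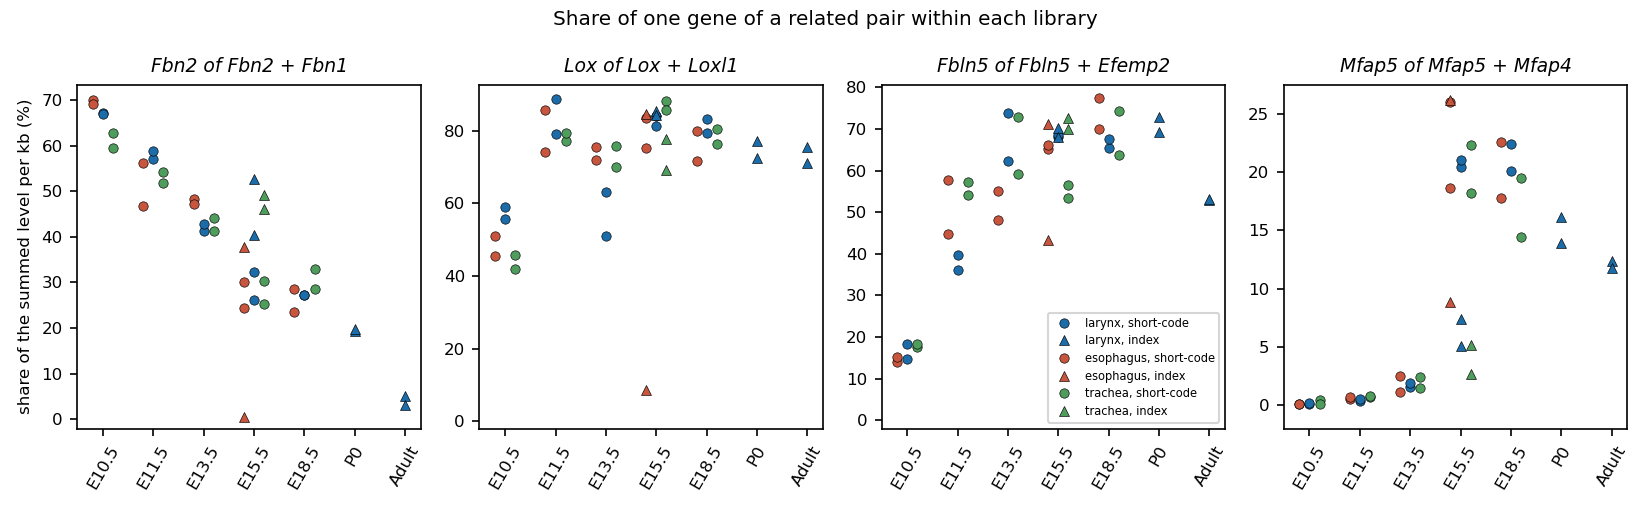
Share (percent) of the first gene in the summed level per kilobase of a pair, against age, in larynx, esophagus and trachea, 1 point per library, circles for short-code and triangles for index libraries. In the larynx the Fbn2 share is 67.1 and 67.0% at E10.5 (short-code) and 5.14 and 3.20% in adults (index). The kinds differ at E15.5, and the esophagus triangle at 0.499% is the library that stood apart.

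Per length, elastin was the largest single part of the set in short-code larynx libraries of E15.5 and E18.5, and at P0. Eln made up 0.682 and 0.680% of the summed level per kilobase of the 10 genes in the larynx at E10.5. In short-code libraries it held 26.4 and 17.3% at E13.5, 26.9 and 22.2% at E15.5 and 26.6 and 22.9% at E18.5. In index libraries it held 25 and 21.8% at E15.5, 54.2 and 51.8% at P0 and 23.4 and 24.5% in adults. At E13.5, and in index libraries of E15.5, the largest share was that of Eln in library number 1 and of Mfap4 in number 2. At E10.5 Mfap4 (29.9 and 28.8%), Fbn2 (21.1 and 27.6%) and Emilin1 (20.2 and 17.2%) held the largest shares, and in adults Mfap4 did (34.5 and 38.4%). The adult order depends on the exon lengths, 8260 bases for Eln and 2351 for Mfap4. Before division by length, mean adult normalized counts were 6110 for Eln and 2656 for Mfap4. At E18.5 the shares of Eln and Fbn1 (19.8 and 22.1%) were neighbours that did not overlap.

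The second question was whether these changes differ between the larynx and its neighbouring organs. From E10.5 to E18.5, 7 of the 10 genes rose in the esophagus, where 22% of all genes changed, and 8 rose in the trachea, where 20.2% changed. Those that did not pass were Fbn2 and Emilin1 in both organs and Efemp2 in the esophagus. Eln changed by 8.58 in the larynx, 8.52 in the esophagus and 8.37 in the trachea on the log2 scale (SE 0.913, 0.907 and 0.9). Mfap5 changed by 9.85, 9.84 and 8.79, and the reads behind it at E10.5 numbered 1 and 4 for larynx, 3 and 3 for esophagus and 12 and 2 for trachea. With 1 E10.5 library left out its change ran from 9.39 (without number 1) to 10.85 (without number 2) in the larynx and from 8.13 (without number 2) to 10.36 (without number 1) in the trachea. Lox changed by 5.94, 5.69 and 6.05 in the same order. In the esophagus Eln had 71.5 and 108 at E10.5 and 33352 and 32458 at E18.5. In the trachea it had 134 and 161 and then 47819 and 49952, the highest embryonic values of any organ.

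The test of the difference itself called none of the 10. Between the larynx and the esophagus, 0.0326% of all genes differed in their change from E10.5 to E18.5, and between the larynx and the trachea 0.402%. The interval of the difference was -1.87 to 2.00 for Eln against the esophagus and -1.73 to 2.14 against the trachea, and differences within these bounds were not detectable with 2 libraries per group. Emilin1 had the largest of these values against the esophagus (1.05, interval -0.22 to 2.31) and Mfap5 against the trachea (1.07, interval -0.59 to 2.73). At an unadjusted p under 0.05 the edgeR test called 0 of 10 in both comparisons, and DESeq2 called 0 at its adjusted threshold. The pieces differed in some markers of neighbouring tissue. At E10.5 heart markers summed to 5.22 and 13.4 in larynx, 377 and 5883 in esophagus and 16601 and 29178 in trachea. Liver markers then summed to 1.31 and 92.9, 10175 and 10646, and 17935 and 422 in the same order. Thyroid markers at E18.5 summed to 687 and 19389, 113517 and 55042, and 281921 and 191645. The part of these tissues in the comparisons of organs was not tested.

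Levels averaged over the embryonic ages were compared next, in short-code libraries only. None of the 10 differed between larynx and esophagus (0.0625% of all genes did), larynx and trachea (0.209%) or trachea and esophagus (0.204%). Member differences lay between -0.23 and 0.08 for larynx minus esophagus and between -0.64 and -0.10 for larynx minus trachea. Eln stood furthest from 0, with a larynx minus trachea difference of -0.64 on the log2 scale (interval -1.25 to -0.03, edgeR adjusted p = 0.897). At an unadjusted p under 0.05 that was 1 of 10 genes, against 0 of 10 in the other comparisons of organs, and DESeq2 called 0 in each. With no filter on low counts Eln passed between larynx and trachea (edgeR adjusted p = 0.0012). Short-code mean Eln was lower in larynx than in trachea at E10.5, E11.5 and E18.5 and close at E13.5 (11320 and 11323). At E15.5 it was higher in larynx (16980 against 5814), whereas index libraries of E15.5 gave 19091 in larynx and 30490 in trachea.

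**Figure D5:**
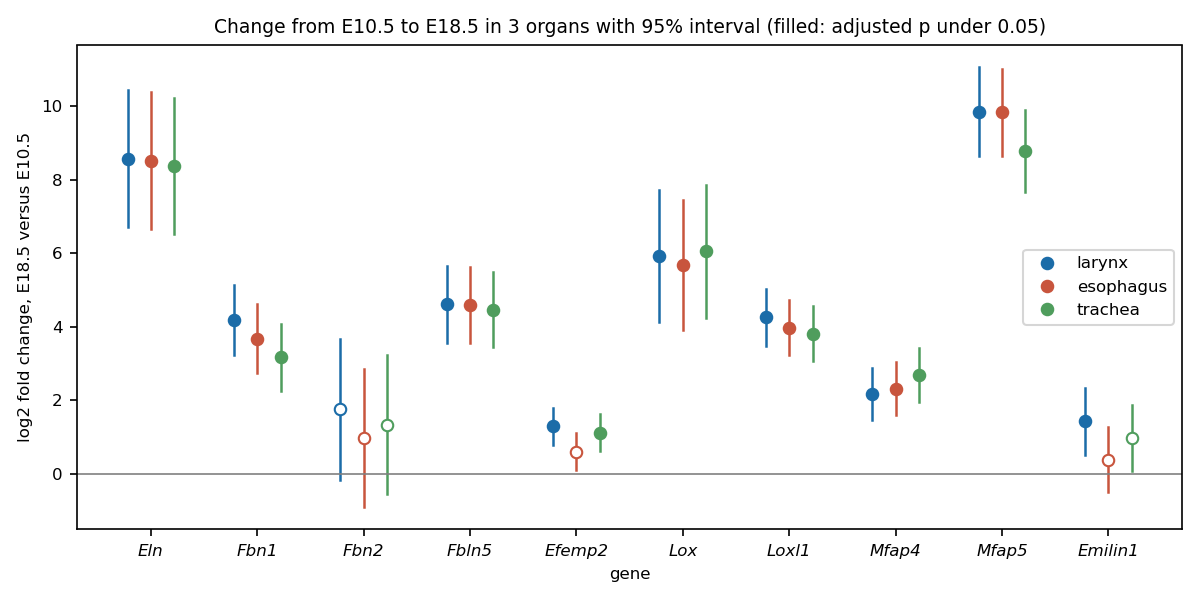
Log2 fold change from E10.5 to E18.5 with its 95% interval for each gene in larynx, esophagus and trachea, filled where the edgeR adjusted p was under 0.05. The intervals of the 3 organs overlap for every gene, and Fbn2 is open in all 3.

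The kinds of library differed for this set at E15.5, which bears on any step read across them. In the larynx the kinds also differ in label, vocal fold for index and larynx for short-code libraries. Averaged over the organs, index libraries were higher for 5 genes (Mfap4 2.39-fold, Emilin1 1.94-fold, Fbln5 1.86-fold, Loxl1 1.72-fold and Efemp2 1.51-fold) and lower for Fbn1 (1.74-fold), where 26.1% of all genes differed and the median of all genes was -0.39 on the log2 scale (0.07 among genes with a mean of at least 50). Eln did not pass (log2 0.79, adjusted p = 0.136), nor did Fbn2, Lox or Mfap5. The Fbn1 call was lost with TMM factors (log2 -0.49, adjusted p = 0.145) and without the 3 short-code libraries that held counts in many olfactory receptor genes (-0.64, adjusted p = 0.1). It was also lost without the E15.5 larynx index library numbered 2 (adjusted p = 0.0606) or the E15.5 trachea short-code library numbered 2 (adjusted p = 0.0586). Without the E15.5 esophagus index library numbered 1, which leaves the library that stood apart alone in its group, Fbn2 had an index minus short-code difference of -2.60 on the log2 scale (adjusted p = 2.01e-09), Lox one of -1.32 (adjusted p = 4.01e-06), and Fbln5 (adjusted p = 0.085) and Emilin1 (adjusted p = 0.0717) were not called. Without the library that stood apart itself, 9 of the 10 differed, with Eln (1.07, adjusted p = 0.0118), Lox (0.58, adjusted p = 0.0139) and Mfap5 (-0.64, adjusted p = 0.0156) added. Eln also passed with TMM factors (1.10, adjusted p = 0.0333).

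The wider pathway was read from 28 further genes of microfibrils, latent TGF-beta binding, cross-linking and elastin breakdown. From E10.5 to E13.5 in the larynx, 21 of the 28 rose and none fell, with a median log2 change of 2.15, where 7.84% of all genes rose. There were 16 to 22 over the fits without 1 library (16 without the E10.5 larynx library numbered 1), 19 with short-code E15.5 in place of E13.5 and 12 with E11.5 in its place. The largest were Ltbp2 (log2 4.80), a microfibril protein that binds Fbln5, then Adamtsl4 (3.32), Ltbp4 (3.32), Ltbp3 (2.99) and Fbln2 (2.85). Ltbp4, which helps deposit Fbln5 and elastin, rose 9.97-fold (SE 0.323 on the log2 scale, adjusted p = 5.13e-08). From E13.5 to E18.5, 9 rose and 2 fell, where 5.39% of all genes rose and 3.02% fell. Those that rose were 5 without either E13.5 library or without the E18.5 library numbered 1, and 0 with short-code E15.5 in place of E13.5. The elastin-degrading enzymes Mmp9 (6.07) and Ctsk (2.95) were among those that rose, with Ltbp2 (4.88), Loxl4 (4.87) and Adamtsl4 (2.47), and Adamtsl2 (-2.95) and Fbln1 (-0.91) fell.

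From E15.5 to P0, 1 of the 28 rose (Mmp9, log2 3.71, adjusted p = 0.0463) and none fell, where 0.364% of all genes rose. Without the E15.5 esophagus library that stood apart 2 rose and 2 fell, and without any 1 of the 4 libraries of this step none did. From P0 to the adult 6 fell and 1 rose, where 2.01% of all genes fell and 2.08% rose. Without the E15.5 esophagus library that stood apart 11 fell and 4 rose, and without 1 of the P0 or adult libraries 4 or 5 fell and none rose. Those that fell were Mfap2 (log2 -2.70), a microfibril glycoprotein, the lysyl oxidase relatives Loxl2 (-2.23) and Loxl3 (-2.05), Fkbp10 (-2.19), a collagen and tropoelastin chaperone, Bmp1 (-1.14), which activates Lox, and Tgfb3 (-1.08). Efemp1, a fibulin, rose by 2.42 (adjusted p = 0.0209). Against E10.5, 22 of 28 were higher at E18.5 in the larynx, 18 in the esophagus and 16 in the trachea, where 12.8, 12.4 and 11.2% of all genes were higher.

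Genes with the most similar course to Eln and Fbn2 were taken by the smallest root mean square difference of centred log2 levels over the 16 larynx libraries, among 14585 genes. For Eln these were Hspb3 (0.91), a small heat shock protein of muscle, Apobec2 (0.954), Synpo2l (1), Actn2 (1.04) and Alpk3 (1.04), of which Synpo2l and Actn2 code for proteins of the sarcomeric Z-disc. The nearest of the set was Mfap5 at rank 17 and a difference of 1.18. For Fbn2 they were Usp29 (0.453), Grb10 (0.556), an adaptor of the insulin receptor, Bex1 (0.644), Adam12 (0.666), a metalloprotease, and Peg3 (0.674), and the nearest of the set was Emilin1 at rank 152. Eln itself had rank 13755 for Fbn2. These are likenesses over libraries that share age and kind, given as a description.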

How the data were processed

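RNA of 40 libraries was sequenced after poly-A selection. The authors quantified reads with RSEM 1.3.3 on Bowtie2 2.4.2 after FastQC 011.5 (submitters' processing notes) against GRCm39, and deposited expected counts per Ensembl gene in 2 tables. The counting's use of strand is not given in these sources. Expected counts were rounded, scaled by median-ratio (RLE) factors and kept where the normalized count was at least 1 in at least 2 libraries (36790 of 53647 genes). edgeR 4.0.16 (R 4.3.3) fitted quasi-likelihood models to 20 groups (20 residual degrees of freedom), with Benjamini-Hochberg adjustment over all genes tested and a threshold of 0.05. Time courses were fitted to the rank of age by a natural spline (3 degrees of freedom), with a threshold of 0.01. No model had a batch term. Kind of library and age coincide outside E15.5, and a term for kind in the time courses was not tested. Symbols came from the GENCODE vM39 annotation. Levels between genes were compared per kilobase of exon, with overlapping annotated exons of a gene merged. Counting intervals are exact conditional binomial ones at 95%.

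Named genes were the 10 members, and per comparison the pathway genes with the largest changes among those past the threshold. The members and lists were chosen with earlier results of these data known. The models were tested on simulated data. Alternatives were TMM factors, other filters, DESeq2 1.42.0, a replicate block, pooled kinds of library, subsets of libraries and each library left out, where the trended dispersion of the full fit was kept. Replicate numbers were not used to pair samples. Over 119 pairs of groups, mostly of different ages, same-numbered deviations correlated at -0.36 to 0.43 (median -0.01), with 27 pairs over 0.1. Between organs of the same age they correlated at 0.21 to 0.27 at E13.5 and at 0.15 to 0.18 at E18.5. At the other ages both signs occurred, for example -0.34 to 0.23 at E11.5. A pairing of organs within an age was not tested.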

Additional observations from a re-analysis of the deposited data

How the results depend on the processing

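Over all alternatives, the count of members called stayed within 1.5 times its value in 275 cases and moved further in 15. Values of single genes kept their direction and side of the threshold in 1068 cases, lost the threshold in 54, gained it in 35 and changed sign in 19. Mfap5 at E10.5 rests on 1 and 4 reads, and the E11.5 larynx library numbered 1 was the shallowest (3286403 counts).

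Members called from E13.5 to E18.5 (2) were 5 with no filter and 0 with short-code E15.5 in place of E13.5, and 1 to 4 over the fits without 1 library. From E15.5 to P0 (1) they were 3 with no filter, 0 with both kinds of E15.5 pooled, and 0 to 2 without 1 library. From P0 to the adult (9) they were 0 to 10 without 1 library, and between larynx and trachea (0) 1 with no filter. The replicate block gave the same number of members as the main analysis in every comparison, for example 9 from E10.5 to E13.5, so it changed no count. The block is a single term over all ages, so it cannot test a pairing within an age. The cause of the other moves was not tested, beyond the fewer libraries in some.

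The genes that changed sign had not been called in those comparisons. From E13.5 to E18.5, TMM factors gave Loxl1 -0.07 and Emilin1 -0.15, E15.5 in place of E13.5 gave Fbln5 0.45 and Efemp2 0.57, and leaving out 1 library gave -0.84 to 0.18 for Fbln5, -0.07 to 0.73 for Mfap4 and -0.24 to 0.21 for Emilin1. Leaving out 1 library also gave -0.13 to 0.76 for esophagus Emilin1, -0.26 to 0.33 for the larynx minus esophagus change of Eln, -0.37 to 0.04 for its mean level, and, for index against short-code, -2.60 to 0.38 for Fbn2 and -1.32 to 0.58 for Lox, both lowest without the E15.5 esophagus index library numbered 1.

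Over all genes, calls from E15.5 to P0 were 203, but 438 with edgeR's own filter, 1986 with none, 1644 in DESeq2, 6 with kinds pooled, 357 without the 3 libraries rich in olfactory receptor genes, and 0 to 2289 without 1 library. From P0 to the adult they were 1505, but 2941 with no filter, 3170 in DESeq2, 559 pooled and 336 to 3667 without 1 library. From E13.5 to E18.5 they were 3094, but 4905 in DESeq2, 1560 pooled and 1186 to 5253 without 1 library, and from E10.5 to E13.5 they were 4952, 3012 pooled and 2456 to 7403. For larynx minus esophagus (12) they were 602 with no filter, 151 in DESeq2 and 6 pooled, and for larynx minus trachea (148) 912, 427 and 52. For larynx against esophagus (23) they were 700 with no filter, more in DESeq2 as well, and 14 without the olfactory-rich libraries, for larynx against trachea (77) 847 and 385, and for trachea against esophagus (75) 913 and 316, with 41 pooled and 127 without those libraries. The larynx time course called 8504, and 3578 in short-code libraries alone.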
